A study of Mus musculus with 5 samples.

Results

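The genes described here encode the proteasome, the barrel-shaped protease that degrades ubiquitin-tagged proteins, together with its immunoproteasome subunits, its activators and its assembly chaperones. They were chosen by symbol, as every gene whose mouse symbol is Psma, Psmb, Psmc, Psmd, Psme, Psmf or Psmg followed by a digit, and each gene was represented by the probe set with the highest mean signal over the 5 arrays. That gave 49 of the 18193 genes with a probe set annotated to exactly 1 symbol. Of the 49, 47 are subunits, activators or chaperones, and the other 2 (Psmc3ip and Psme3ip1) are named as partners of a subunit. Psme2 and Psme2b, which encode the partner of Psme1 in the PA28 activator, have no such probe set and were not analysed here. The mean signal chose the probe set but not the gene, and choosing by the mean of both group means, which gives each group equal weight, gave the same counts of calls.

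RNA came from cytotoxic CD8 T cells of 1 antigen specificity from 2 sources. G9C8 is a cultured T cell clone specific for an insulin B chain peptide, and 3 frozen vials of it were used. The other cells were splenocytes of 2 NOD.G9C8 mice, aged 4 to 8 weeks, NOD/LtJ animals transgenic for the G9C8 T cell receptor. Cells of both sources had 3 days with the peptide at 10 µg/ml and then 2 days in IL2 at 5 IU/ml, so no group was left unstimulated. Each vial and each mouse gave 1 array. The clone is a single clone, so the error of the clone group is the spread between vials, and that of the transgenic group is the spread between 2 mice. The labels name no sort of the cells before RNA was taken.

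The proteasome core is a stack of 4 rings, with alpha subunits outside and beta subunits inside, and 3 of the beta subunits carry the active sites. Lymphocytes and cells exposed to interferon gamma exchange these for the immunosubunits Psmb9, Psmb10 and Psmb8, which shift the peptides made towards those that MHC class I presents. A cap of ATPases and non-ATPase subunits binds, unfolds and feeds in ubiquitin-tagged proteins, while the activators PA28 and PA200 open the core to other substrates, independently of ubiquitin.

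By their brightest probe sets, 21 of 45 proteasome genes tested were higher in the clone, among them every cap ATPase and, at 2.06-fold, the activator Psme3. The immunosubunit Psmb10 and the activator Psme4 were lower. Differences are given as clone minus transgenic on the log2(signal + 20) scale, and a gene is called at an adjusted p under 0.05 in a limma fit over all 12446 genes tested. Across all those genes 43.8% were called, 22% as higher and 21.7% as lower in the clone. Of the 49 genes, 47 passed the filter on dim probe sets, and 45 of these are subunits, activators or chaperones. Among the 45, 21 were called higher, 2 lower, and 22 were not called. With a filter at the 60th percentile, which keeps only brighter genes, 53.6% of 9144 genes were called, 27.8% as higher. Of the proteasome genes, 22 were then called higher and 2 lower. The median difference of the 45 genes was 0.27, against -0.01 for all genes tested, and 38 of the 45 were positive. The differences were small in size: 1 of the 45 reached 1 on the log2 scale (2-fold), and 15.1% of all genes tested did so. All arrays of one group lay above all of the other in 28 genes with the clone above and in 6 with the clone below, while 11 overlapped. Over all genes tested the groups did not overlap in 64.5%, with the clone above in 31.9% and below in 32.6%. Called genes were thus higher in 91.3% of cases, a share that was 77.8% after quantile normalization of the same arrays, where 21 genes were called higher and 6 lower.

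**Figure D1:**
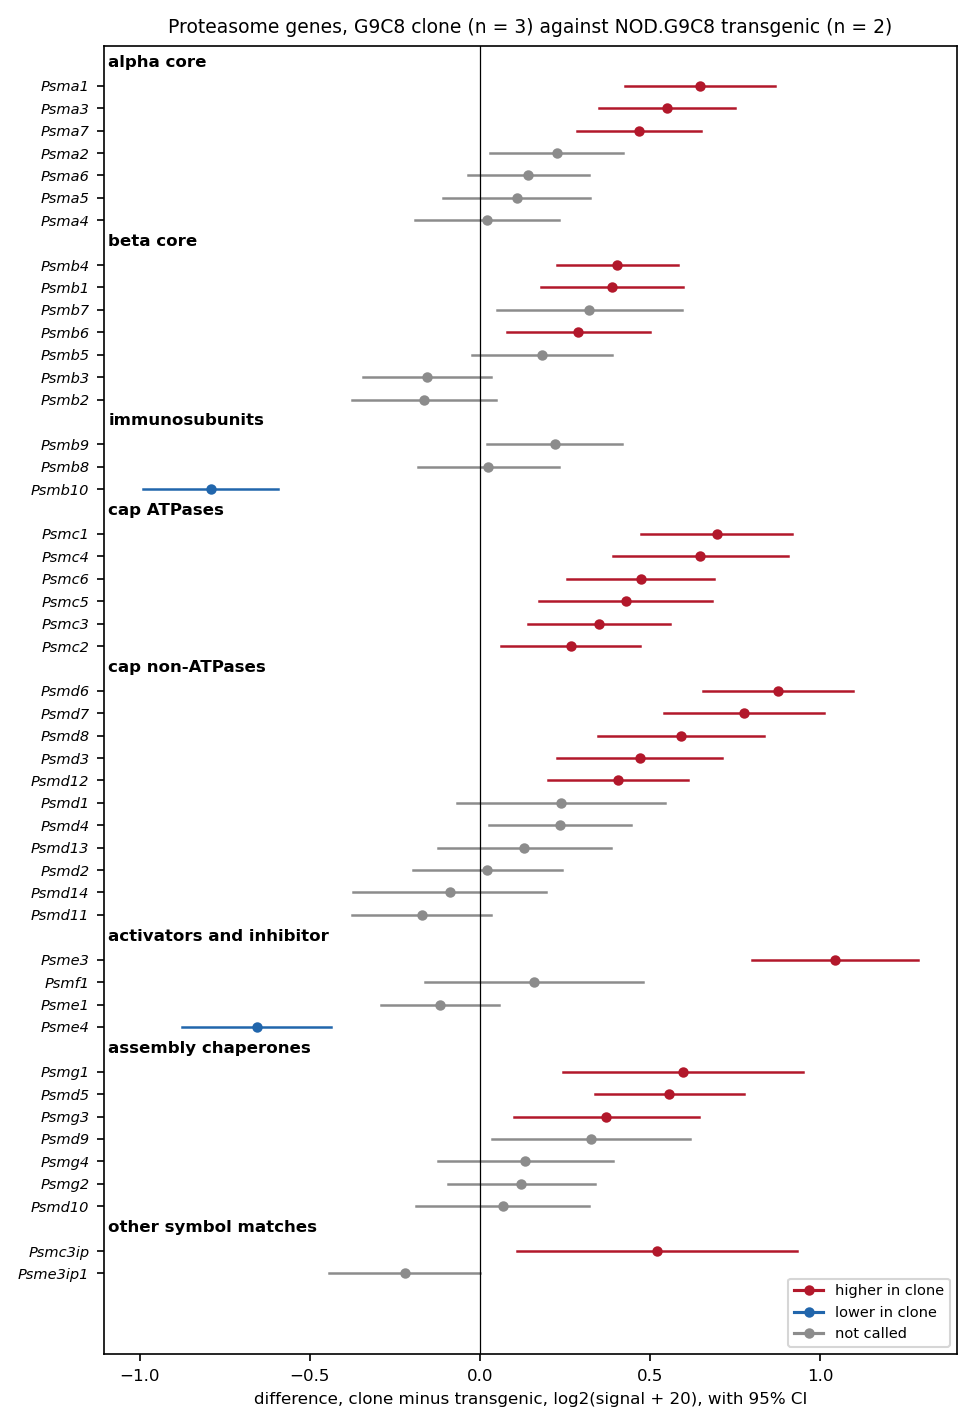
Difference between clone (3 arrays) and transgenic (2 arrays) on the log2(signal + 20) scale for each of the 47 tested genes, grouped by role. Points are the fitted differences and lines their 95% confidence intervals, coloured by call. All 6 cap ATPases lie right of 0, and Psmb10 (-0.79) and Psme4 (-0.66) are the genes called lower.

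Proximal promoters of 4 genes are given here: a cap ATPase, since all of these were called higher, an immunosubunit, and the activators of largest difference in each direction. They are the 250 bases before the annotated start in RefSeq, build GRCm38.p6, written 5′ to 3′ along the gene. Psmc1 (chr12:100109952-100110201, plus strand) stands for the cap ATPases. Psmb8 (chr17:34197945-34198194, plus strand) is an immunosubunit; no window is shown for Psmb10, because the start to which its listed window belongs may not be the main one. Psme3 (chr11:101315963-101316212, plus strand) and Psme4 (chr11:30771525-30771774, plus strand) are activators. Capitals mark matches, on either strand, to a CCAAT box (CCAAT), an ETS-type site (CCGGAAG), a gamma-activated site (TTCNNNGAA), an antioxidant response element core (TGACNNNGC) or an interferon response element (GAAA, any 2 bases, GAAA).
Psmc1: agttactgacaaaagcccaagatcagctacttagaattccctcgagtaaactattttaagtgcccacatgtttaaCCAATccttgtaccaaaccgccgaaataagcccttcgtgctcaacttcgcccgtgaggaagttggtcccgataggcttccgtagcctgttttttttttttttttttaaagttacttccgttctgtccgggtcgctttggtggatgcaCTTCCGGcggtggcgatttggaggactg
Psmb8: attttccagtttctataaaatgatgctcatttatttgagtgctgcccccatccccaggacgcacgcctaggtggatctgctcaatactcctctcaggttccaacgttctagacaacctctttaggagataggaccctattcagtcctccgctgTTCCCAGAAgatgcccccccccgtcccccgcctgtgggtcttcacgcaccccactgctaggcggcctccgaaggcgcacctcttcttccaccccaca
Psme3: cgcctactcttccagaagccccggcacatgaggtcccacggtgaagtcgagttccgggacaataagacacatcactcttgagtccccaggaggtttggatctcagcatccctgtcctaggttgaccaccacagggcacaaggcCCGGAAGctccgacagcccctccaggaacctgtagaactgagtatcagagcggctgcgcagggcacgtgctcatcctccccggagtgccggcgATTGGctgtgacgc
Psme4: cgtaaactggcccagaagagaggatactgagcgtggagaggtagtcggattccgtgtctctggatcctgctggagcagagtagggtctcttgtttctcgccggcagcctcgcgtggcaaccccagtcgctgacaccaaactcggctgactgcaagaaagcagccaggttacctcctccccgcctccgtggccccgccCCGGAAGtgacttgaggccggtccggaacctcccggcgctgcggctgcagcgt
The Psmc1 window holds a CCAAT box 175 bases and an ETS-type site 28 bases before the start. The Psme3 window holds both motifs as well, at 14 and 107 bases before the start, and the Psme4 window an ETS-type site at 53 bases. The Psmb8 window holds a gamma-activated site at 97 bases. These matches are a description of sequence and not evidence that a factor binds.

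Over the 47 proteasome genes, 39 had a RefSeq promoter window, and their motifs were counted beside those of all 32851 windows of the same length. The 39 genes had 41 windows, and a gene counted if any of its windows matched, whereas the share of all is per window. The listed window of Psmb10 is included. ETS-type sites were in 12 of the 39 genes (30.8%), beside 6.91% of all windows. Of those 12 genes, 7 were called higher (Psmc1, Psmc2, Psmc6, Psmd12, Psmd6, Psme3 and Psmg1), Psme4 was called lower and 4 were not called. Of all 39 genes with a window, 17 were called higher, and no difference between genes with and without the motif was tested. The CCAAT box was in 14 of 39 genes, or 35.9%, beside 33.8% of all windows. The antioxidant response element core was in 5 of 39 (12.8%, beside 10.2%), the gamma-activated site in 2 of 39 (5.13%, beside 7.02%) and the interferon response element in 3 of 39 (7.69%, beside 2.98%). Looser and longer forms of these gave 38.5% beside 35.2% for TGANNNNGC, 2.56% beside 2.47% for TGACNNNGC followed by A, and 2.56% beside 0.682% for GAAA, any base, T and GAAA. Every match of a stricter form is also one of its looser form, so these counts overlap. The windows of the proteasome genes had a median GC content of 57.6%, beside 52.4% for all windows, and the part of base composition in these shares was not tested.

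Of the 7 alpha subunits, which form the outer rings and the gate of the core, 3 were called higher in the clone, none lower and 4 were not called. Their median difference was 0.23, with a range from 0.02 to 0.65. Psma1 read 4948 and 5371 in transgenic cells and 7878, 7543 and 8855 in the clone. The groups did not overlap, and the difference was 0.65 (SE 0.10; limma adjusted p = 0.000882). Its 3 dimmer probe sets differed by 0.49, -0.34 and -0.59, and the mean over all of them was not called (0.050, limma adjusted p = 0.772). Psma3 read 5547 and 5869 in transgenic cells and 7915, 8239 and 8939 in the clone, again without overlap, a difference of 0.55 (limma adjusted p = 0.00122). Psma7 read 3757 and 3783 against 5292, 5071 and 5285, a difference of 0.47 (limma adjusted p = 0.00177). The 3 genes thus differed by 1.56-fold, 1.46-fold and 1.38-fold. The other 4 alpha genes had differences of 0.23 (Psma2), 0.14 (Psma6), 0.11 (Psma5) and 0.02 (Psma4). Psma2 was called when clone array 2 was left out (limma adjusted p = 0.0364). Psma6 rests on a probe set that can cross-hybridise, and its other bright probe set, at 4440 and 4590 against 5805, 5907 and 6325, was called higher (0.41, limma adjusted p = 0.00514). Its dim probe sets above the filter went the other way, at -0.37 and -0.60.

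The 7 constitutive beta subunits, which form the inner rings, also gave 3 genes called higher and none lower, with a median difference of 0.29 and a range from -0.17 to 0.40. Psmb4 had signals of 6814 and 6727 in transgenic cells and 8636, 9078 and 9174 in the clone, a difference of 0.40 (SE 0.08; limma adjusted p = 0.00327). Its second probe set, at 3190 and 5438 against 9322, 9751 and 10026, gave a larger difference of 1.21, with the 2 transgenic arrays far apart. Psmb1 read 6905 and 7626 against 8842, 9962 and 9726, a difference of 0.39 (limma adjusted p = 0.00852), and was not called without transgenic array 1 (0.32, limma adjusted p = 0.0923). Psmb1 also lost its call with the replicate block (limma adjusted p = 0.0541) and with the mean over its probe sets (0.21, limma adjusted p = 0.237), of which the dim ones differed by 0.80 and -0.55. In both genes every clone array lay above both transgenic arrays. Psmb2 (-0.17) and Psmb3 (-0.16), neither of them catalytic, had every clone array below both transgenic arrays but were not called. After quantile normalization both were called lower.

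The 3 catalytic beta subunits and the immunosubunits that replace them differed in their calls: 1 constitutive subunit was called higher and 1 immunosubunit lower. Psmb6, the beta 1 subunit with caspase-like activity, read 2079 and 2268 in transgenic cells and 2611, 2769 and 2594 in the clone. It differed by 0.29 (95% CI 0.08 to 0.50; limma adjusted p = 0.0323). Leaving out any single array ended this call, with adjusted p from 0.0553 (without clone array 3) to 0.211 (without transgenic array 1). Psmb7, the beta 2 subunit with trypsin-like activity, read 6464 and 5366 against 7509, 6557 and 8103. All clone arrays lay above, but the difference of 0.32 (95% CI 0.05 to 0.59) was not called (limma adjusted p = 0.0569). It was called without clone array 2 (limma adjusted p = 0.0170) or without transgenic array 1 (limma adjusted p = 0.0496). Psmb5, the beta 5 subunit with chymotrypsin-like activity, read 3697 and 3475 against 3960, 3914 and 4350, a difference of 0.18 (95% CI -0.02 to 0.39; limma adjusted p = 0.136).

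Psmb10, the immunosubunit of the beta 2 position, was the one of the 3 immunosubunits called lower. Its signals were 4302 and 4003 in transgenic cells and 2316, 2404 and 2446 in the clone, or 4153 ± 211 (SD, n = 2) against 2389 ± 66.1 (SD, n = 3). The groups lay far apart compared with the spread in each, and transgenic cells were 1.73-fold higher. The difference was -0.79 (95% CI -0.99 to -0.59; SE 0.09; limma adjusted p = 0.000165), and the gene was called lower in all 18 other settings tried. Psmb10 has 1 probe set, so the settings that change the choice of probe set read the same values for it. Psmb9, the beta 1 immunosubunit, read 7403 and 6526 against 7904, 8058 and 8323. The clone arrays lay above both transgenic arrays, and the difference of 0.22 (95% CI 0.02 to 0.42) was not called (limma adjusted p = 0.0727). Psmb8, the beta 5 immunosubunit, read 10643 and 9959 against 9741, 11321 and 10414. These groups overlapped, and the difference was 0.02 (95% CI -0.18 to 0.23; limma adjusted p = 0.851). A second and dimmer Psmb8 probe set, of a kind that can cross-hybridise, read 618.2 and 721.6 against 1525, 1006 and 878.2 and was called higher (0.71, limma adjusted p = 0.0298), as was the mean of both probe sets (0.37, limma adjusted p = 0.0275). Markers of myeloid cells, which also carry immunoproteasomes, were lower in the clone on the same arrays (summed signal 3414 to 4441 against 11618 to 13740), and their part in the difference of Psmb10 was not tested. Psmb8 and Psmb9 lie on chromosome 17, in the MHC region, and Psmb10 on chromosome 8.

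**Figure D2:**
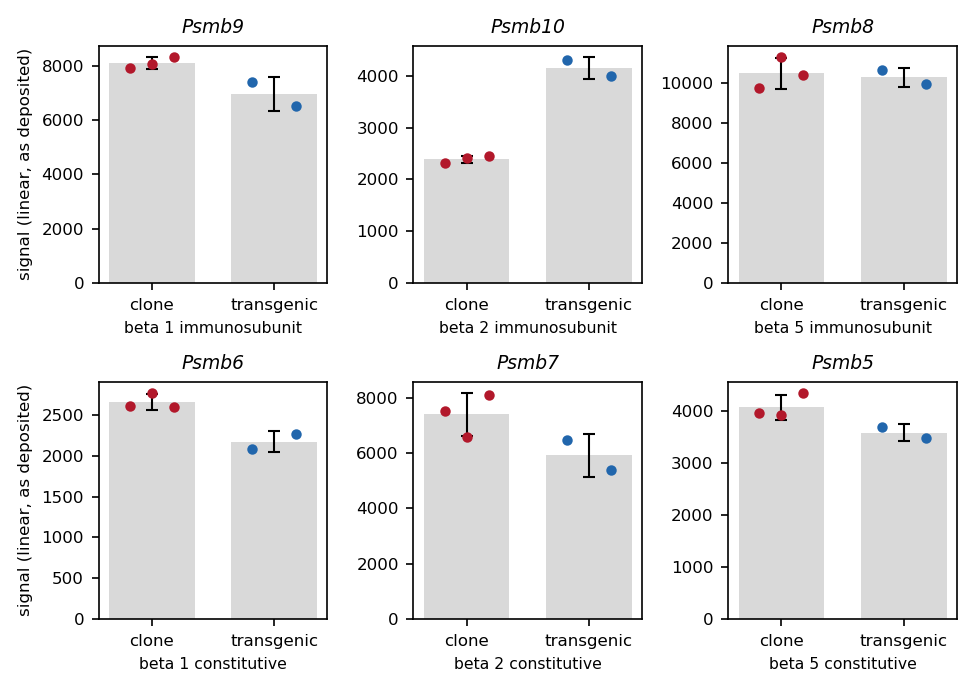
Signals of the 3 immunosubunits (top) and of the constitutive subunits of the same positions (bottom), as deposited on a linear scale; bars are means, error bars SD (clone n = 3, transgenic n = 2) and points single arrays. The 3 clone arrays of Psmb10 lie between 2316 and 2446, below both transgenic arrays, while those of Psmb9, Psmb6, Psmb7 and Psmb5 lie above both.

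Each immunosubunit was also compared with the subunit it replaces within each array, as the difference of their log2 values, so that a shift of the whole array cancels. Relative to the transgenic mean, Psmb10 minus Psmb7 was -1.19, -0.94 and -1.22 in the 3 clone vials and -0.08 and 0.08 in the 2 mice. The Psmb10 to Psmb7 ratio was thus 2.16-fold higher in transgenic cells (difference -1.11, SD 0.15 in the clone and 0.12 in transgenic cells). The exact two-sided permutation test, which takes 2 times the smaller one-sided p, gave p = 0.2, the smallest that this form allows over 10 arrangements of 3 and 2 arrays, and p = 0.6 after adjustment over the 3 pairs. Psmb9 minus Psmb6 differed by -0.07, less than the SD of 0.22 between the transgenic arrays (exact p = 0.8). This value was 0.08 without transgenic array 1 and -0.22 without transgenic array 2. Psmb8 minus Psmb5 differed by -0.16, with 1 clone array (0.01) level with the transgenic arrays and the other 2 at -0.22 and -0.26 (exact p = 0.6).

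By their brightest probe sets, the cap ATPases were the only class called higher throughout. This held for all 6 genes, and in all 6 every clone array lay above both transgenic arrays. The dimmer probe sets of Psmc2 above the filter had negative differences, given below. These ATPases form the ring that unfolds substrates and opens the core gate. Their median difference was 0.45, with a range from 0.27 to 0.70. Psmc1 read 1135 and 1095 in transgenic cells and 1735, 1817 and 1905 in the clone, a 1.62-fold difference (0.70, SE 0.10; limma adjusted p = 0.000622). Psmc4 read 1708 and 1682 against 2820, 2340 and 2869 (0.65, SE 0.11; limma adjusted p = 0.00190). Psmc6 read 2895 and 2803 against 4194, 3635 and 4070 (0.47, SE 0.09; limma adjusted p = 0.00393). Clone array 2 was the lowest of the clone arrays in 5 of the 6 genes. Psmc5 (0.43), Psmc3 (0.35) and Psmc2 (0.27) had smaller differences, with limma adjusted p of 0.0143, 0.0143 and 0.0405.

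Leaving out a mouse leaves 1 array in that group, and fewer genes were then called over all genes as well as among these 6. Of the 6 ATPases, 3 were called without transgenic array 1, and 3 without transgenic array 2. In both cases the calls of Psmc5 (limma adjusted p = 0.0744 and 0.0747), Psmc3 (0.0820 and 0.0741) and Psmc2 (0.210 and 0.109) were lost. Psmc2 also lost its call without clone array 1 (limma adjusted p = 0.0992) and without clone array 3 (0.115). The brightest Psmc2 probe set can cross-hybridise, and its dimmer ones above the filter differed by -0.053 and -1.06. The mean over the Psmc2 probe sets was -0.28 and was not called (limma adjusted p = 0.0729). With the replicate number as a block 3 of the 6 were called. Psmc1 and Psmc4 were called higher under each of the 18 other settings tried. Psmc1 has 1 probe set above the filter, so the settings that change the choice of probe set read the same values for it.

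Of the 11 non-ATPase cap subunits 5 were called higher, none lower and 6 were not called, with a median difference of 0.24. Psmd6, Psmd7 and Psmd8, structural subunits of the lid that sits over the ATPases, had the largest differences. Psmd6 read 1947 and 2246 in transgenic cells and 3969, 3705 and 3894 in the clone, a 1.83-fold difference (0.88, 95% CI 0.66 to 1.10; limma adjusted p = 0.000167). Its other probe set did not show this: it read 3326 and 2666 against 2840, 2759 and 2930, a difference of -0.067 (limma adjusted p = 0.676). Psmd7 read 919.9 and 893.5 against 1643, 1467 and 1591, a 1.71-fold difference (0.77, SE 0.10; limma adjusted p = 0.000459). The second Psmd7 probe set had a difference of 0.47 (limma adjusted p = 0.0810). Psmd8, with a single probe set, read 4388 and 4246 against 5844, 6418 and 7336, with no overlap (0.59, SE 0.11; limma adjusted p = 0.00237).

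Psmd3 (0.47, limma adjusted p = 0.00733) and Psmd12 (0.40, limma adjusted p = 0.00664), also lid subunits, were the other genes called in this class. Psmd3 was not called without transgenic array 1 (limma adjusted p = 0.0656). Psmd4, a ubiquitin receptor, had a difference of 0.23 and was not called, but its second probe set was called higher (0.27, limma adjusted p = 0.0428), as was the mean over its probe sets (0.29, limma adjusted p = 0.0305). Psmd14, the deubiquitinase of the lid, had a difference of -0.09 and was not called. The large scaffold subunits Psmd1 (0.24) and Psmd2 (0.02) and the lid subunits Psmd13 (0.13) and Psmd11 (-0.17) were not called either. Psmd1 was called without clone array 2 (0.36, limma adjusted p = 0.0197). Psmd11 had every clone array below both transgenic arrays and was called lower after quantile normalization. Its brightest probe set can cross-hybridise, and the next was called lower at -0.42 (limma adjusted p = 0.00771). The other 3 above the filter differed by -0.58, 0.29 and -0.37.

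The activators and their inhibitor, 4 genes, had the widest range among the classes, from -0.66 to 1.04, with 1 gene called higher, 1 lower and 2 not called. Psme3, which encodes the nuclear activator PA28 gamma, read 763.6 and 741.0 in transgenic cells and 1553, 1694 and 1474 in the clone, or 752 ± 16.0 (SD, n = 2) against 1574 ± 111 (SD, n = 3). Every clone array was close to double the transgenic ones, a 2.06-fold difference (1.04, 95% CI 0.80 to 1.29; limma adjusted p = 0.000114). A second Psme3 probe set above the filter read 608.9 and 601.3 against 677.6, 685.4 and 621.9, a difference of only 0.12 (limma adjusted p = 0.441). The call of Psme3 therefore rests on 1 of its 2 probe sets above the filter.

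Psme4, which encodes the large nuclear activator PA200, was lower in the clone. It read 2240 and 2159 in transgenic cells and 1389, 1452 and 1324 in the clone, or 2199 ± 56.7 (SD, n = 2) against 1388 ± 63.7 (SD, n = 3). Transgenic cells were 1.58-fold higher (-0.66, 95% CI -0.87 to -0.44; limma adjusted p = 0.000750). Its second probe set read 1768 and 2011 against 855.7, 684.8 and 920.5 (-1.19, limma adjusted p = 0.000340), and the third differed by -0.82. The 3 dim probe sets of this gene, with mean signals of 111 to 170, differed by 0.62, 0.01 and 0.83, and the mean over all its probe sets was not called (-0.20, limma adjusted p = 0.180). Psme1, a subunit of the PA28 activator induced by interferon gamma, read 9953 and 10295 against 9084, 9518 and 9385. The clone arrays lay below both transgenic arrays, and the difference of -0.12 (95% CI -0.29 to 0.06) was not called (limma adjusted p = 0.250), but was called lower after quantile normalization. Psmf1, which encodes the inhibitor PI31, read 1308 and 1635 against 1455, 1863 and 1613, with overlapping groups (0.16, 95% CI -0.16 to 0.48; limma adjusted p = 0.394).

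Of the 7 assembly chaperones 3 were called higher and none lower, with a median difference of 0.33. Psmg1, which with Psmg2 guides the alpha ring together, read 1029 and 1104 in transgenic cells and 1735, 1307 and 1877 in the clone (0.60, SE 0.15; limma adjusted p = 0.0139). Clone array 2 lay nearer to the mice than to the other vials. Psmd5, a chaperone of the cap base, read 1388 and 1462 against 2183, 1985 and 2147 (0.56, SE 0.10; limma adjusted p = 0.00185). Psmg3, a partner of Psmg4 in core assembly, read 887.9 and 875.3 against 1070, 1090 and 1288 (0.37, SE 0.12; limma adjusted p = 0.0339), while its dim second probe set differed by -0.095. Psmd9 (0.33; called after quantile normalization, limma adjusted p = 0.0370), Psmg4 (0.13), Psmg2 (0.12) and Psmd10 (0.07) were not called.

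The assembly count fell without transgenic array 1 and without transgenic array 2, which leaves 1 array in that group. Calls over all genes fell as well. Psmg1 was then not called (limma adjusted p = 0.0902 and 0.0507), nor was Psmg3 (0.127 and 0.140), which also lost its call without clone array 3 (0.0878). Psmd5 was called higher under each of the 18 other settings tried. It has 1 probe set, so the settings that change the choice of probe set read the same values for it.

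Tissue-specific core subunits were dim on every array. Psma8, the alpha subunit of germ cells, read 3.8 and 8.8 in transgenic cells and 9.3, 12.7 and 29.1 in the clone. Psmb11, the catalytic subunit of the thymic cortex, read 16.7 and 18.4 against 22.2, 68.8 and 39.4. Both lay under the filter of 88.2 and were not tested. Psmc3ip, a recombination factor whose symbol only matches, read 437.3 and 425.2 against 754.7, 658.4 and 495.7 (0.52, limma adjusted p = 0.0445). It was not called without transgenic array 1 (0.143) or 2 (0.165) or without clone array 1 (0.123) or 2 (0.0853). Psme3ip1 had a difference of -0.22 (limma adjusted p = 0.0985).

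Several probe sets of one gene allowed a check within the same arrays. Of the 23 genes called, 13 had a second probe set above the filter. It had the same sign in 10 and was called in the same direction in 8 of these. In 3 genes, Psmc2, Psmd6 and Psmg3, it had the opposite sign without being called. Probe sets of one gene can bind different transcript ends, so a gene whose probe sets differ has no single value here.

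**Figure D3:**
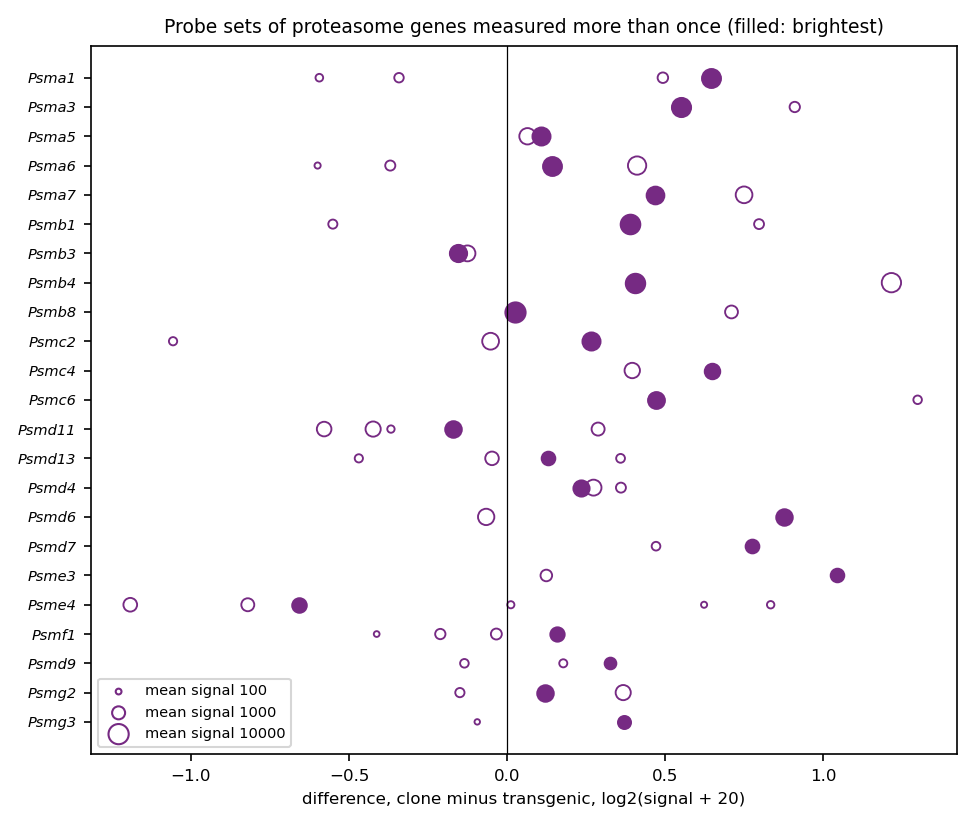
Differences of every probe set above the filter for the 23 proteasome genes measured by several, on the log2(signal + 20) scale; filled points are the brightest probe set and point size follows the mean signal of 5 arrays. The probe sets of Psmd6 (0.88 and -0.067) and of Psme3 (1.04 and 0.12) lie apart, and the 3 brightest of Psme4 lie between -0.66 and -1.19.

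The clone vials were not level among themselves. Relative to the transgenic mean, the median of the 6 ATPases was 0.51, 0.32 and 0.53 on clone arrays 1, 2 and 3. Clone array 2 was the lowest of the clone arrays in 24 of the 45 genes, and clone array 3 was the highest in 23. Without clone array 2 23 genes were called higher and 2 lower. The count higher was smaller without transgenic array 1 and without transgenic array 2, which leaves 1 array in that group. Calls over all genes fell as well.

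Genes that work with the proteasome were taken from 5 lists, on which 45 of 56 genes had a probe set of exactly 1 symbol. Of 15 proteasome partners, 6 were called higher, 1 lower and 8 were not called, with a median difference of 0.29. Zfand5, an activator of the proteasome that binds ubiquitin, read 2865 and 2780 in transgenic cells and 5723, 5765 and 5186 in the clone (0.97, limma adjusted p = 5.71e-05). Its second probe set did not show this, with a difference of -0.094. Usp14, a deubiquitinase bound to the cap, differed by 0.57 (limma adjusted p = 0.00379), and 0.32 at its second probe set (limma adjusted p = 0.0578). Ubqln4, a shuttle that carries ubiquitin-tagged proteins, differed by 0.51 (limma adjusted p = 0.00687) and was not called without transgenic array 1 (0.0619). Zfand2a, a heat-inducible cap-binding protein, differed by 0.47 (limma adjusted p = 0.0411) and lost its call without either transgenic array (0.162 and 0.131) and without clone array 2 (0.0813) or 3 (0.0918). The core assembly factor Pomp, named after its values were seen, had a difference of -0.21 and was not called (limma adjusted p = 0.120).

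Of 7 regulators of proteasome genes none was called higher, 3 were called lower and 4 were not called. Nfe2l2, which encodes the oxidative stress factor NRF2, read 1698 and 1632 in transgenic cells and 759.5, 571.9 and 530.8 in the clone, well apart (-1.41, limma adjusted p = 0.000177). Its second probe set gave a smaller difference of -0.37 that was not called. Nfe2l1, which encodes NRF1, the factor that raises proteasome genes when proteasome activity is short, had a difference of 0.22 (limma adjusted p = 0.102), and is named after its values were seen. Ngly1, the deglycosylase that activates NRF1, and Nfyb, a subunit of the factor that binds CCAAT boxes, each differed by -0.32 (limma adjusted p = 0.0248 and 0.0432). Ngly1 was not called without transgenic array 2 (0.201) or clone array 3 (0.0560). Nfyb was not called without transgenic array 1 (0.264) or 2 (0.0738) or clone array 2 (0.0823) or 3 (0.0741), whereas its second probe set was called lower with a larger difference of -1.16 (limma adjusted p = 0.000221). Uba6, a ubiquitin-activating enzyme and the only gene of 6 on the ubiquitin supply list with a named probe set, differed by -0.41 (limma adjusted p = 0.0151). It lost its call without transgenic array 1 (0.0591) or 2 (0.111).

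Downstream of the proteasome, 13 genes of peptide trimming and loading onto MHC class I gave 5 called higher, 4 lower and 4 not called, with a median difference of 0.03. Tapbpl, a peptide editor of class I molecules, read 2190 and 2298 in transgenic cells and 354.0, 348.0 and 363.6 in the clone (-2.59, limma adjusted p = 9.68e-07). Tapbp, which encodes tapasin, was also lower, at 8187 and 8219 against 4877, 5909 and 5014 (-0.64, limma adjusted p = 0.00117). The peptide transporter subunit Tap2 was higher, at 2777 and 2911 against 4409, 4475 and 4369 (0.63, limma adjusted p = 0.000406). The other subunit, Tap1, was lower, at 2121 and 2058 against 1707, 1273 and 1628 (-0.45, limma adjusted p = 0.0254), and was not called without transgenic array 1 (0.127) or 2 (0.0939). Thop1, a cytosolic peptidase, read 142.8 and 154.2 against 312.5, 303.4 and 352.6 (1.02, limma adjusted p = 0.00160). The list therefore held large differences in both directions.

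The interferon gamma pathway, which induces the immunosubunits and Psme1, had 1 of 9 genes called higher, 5 lower and 3 not called, with a median difference of -0.90. Ifng, the cytokine, read 324.3 and 720.5 in transgenic cells and 7796, 5889 and 5818 in the clone (3.68, limma adjusted p = 2.37e-05). Irf1, a transcription factor induced by interferon gamma, went the other way, at 9930 and 7396 against 1801, 1706 and 1850 (-2.25, limma adjusted p = 5.00e-06). The receptor kinases Jak1 and Jak2 were lower in the clone, at -1.74 (limma adjusted p = 7.39e-06) and -1.37 (limma adjusted p = 2.28e-05). By their brightest probe sets Psmb8, Psmb9 and Psme1 were not called on the same arrays, and Psmb10 was called lower.

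**Figure D4:**
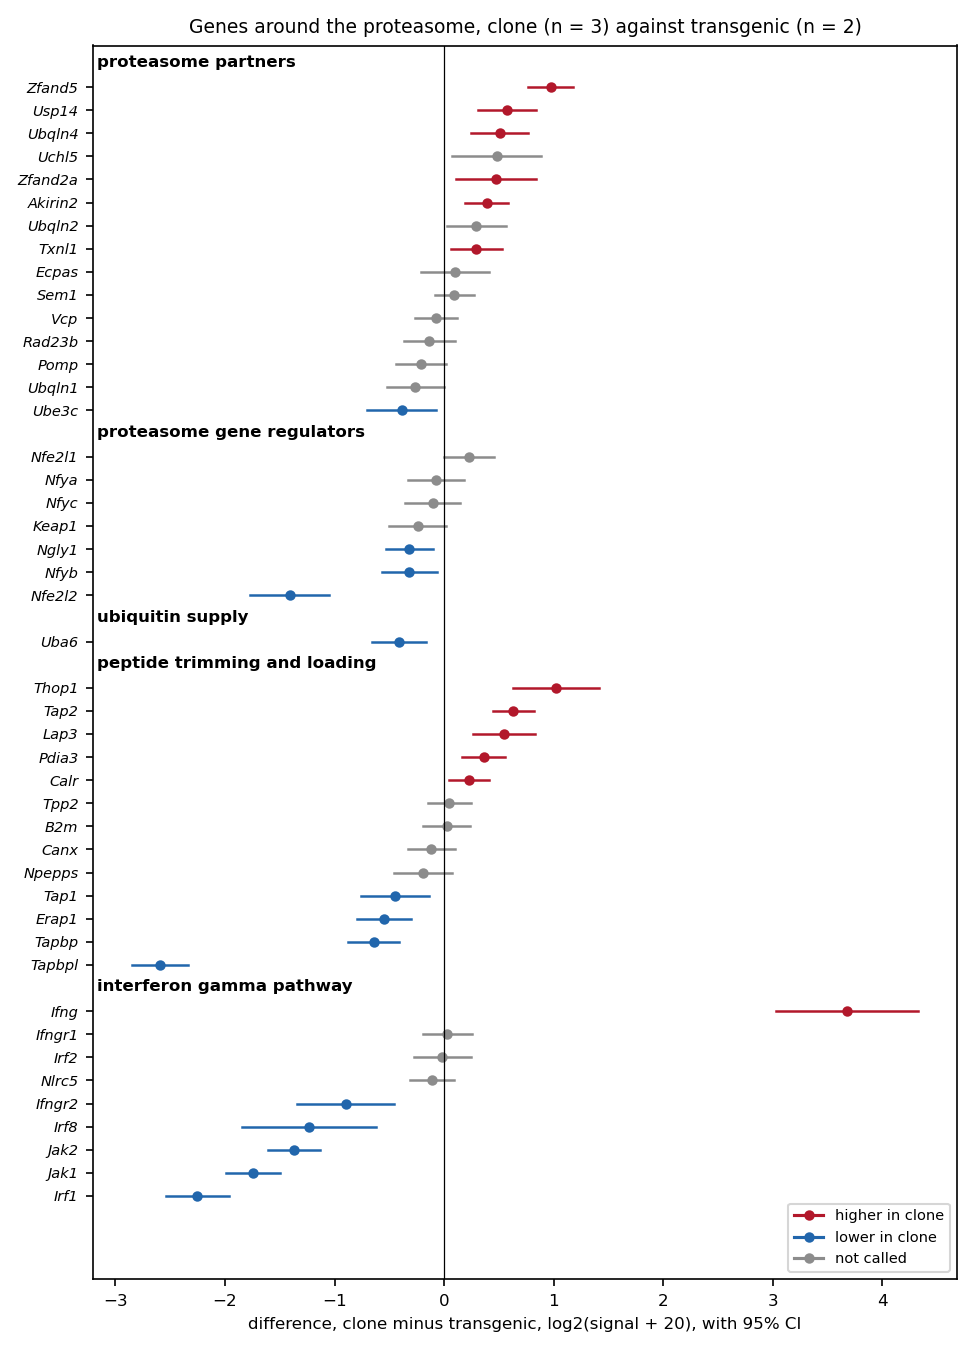
Differences with 95% confidence intervals for 45 genes of the 5 lists around the proteasome, on the log2(signal + 20) scale, coloured by call. Of the regulators and interferon gamma pathway genes, Nfe2l1 (0.22), Ifngr1 (0.03) and Ifng (3.68) lie right of 0 and the others left of it.

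The labelled cell type was checked on its markers. Cd3e, Cd8a and Cd8b1 were bright on all arrays, with mean signals of 5839, 8809 and 7603 in the clone, and Cd4 was dim at 38.8. Both CD8 genes and 2 of the 5 pan-T-cell genes on the list were called lower in the clone. Of 10 myeloid markers 8 were tested, 7 were called lower in the clone and 1 was not called. Their summed signal was 3414 to 4441 on the clone arrays and 11618 to 13740 on the transgenic arrays, and none was at 0. Most of the clone sums came from Ms4a6c, at 2346, 3163 and 2546 against 5762 and 4782 in transgenic cells. Lyz2 read 274.1, 326.9 and 237.1 in the clone against 3497 and 5549. Of the dendritic cell markers 4 were tested and 2 called lower, with sums of 544 to 621 against 906 to 1416. Of the B cell markers 4 were tested and 1 was called lower, with sums of 631 to 864 against 1424 to 1436. That gene was Cd79b, at 654.5 and 594.0 in transgenic cells against 31.5, 2.7 and 46.0 in the clone. Ms4a1 and Pax5 overlapped between the groups, and Blk was not called. In these bulk samples fewer cells of a type and less RNA per cell cannot be told apart. The part of other cells in the lower Psme4, Irf1 and Tapbpl of the clone was not tested.

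The arrays were on one scale, with a 2% trimmed mean of 500 each and median signals from 132 to 142. The 45 genes had mean signals from 678 to 10416, below the highest signals of each array, which were between 25836 and 30579.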

How the data were processed

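Affymetrix mouse arrays measured 5 RNA samples, grouped by their titles. Each probe set has 1 deposited signal, a linear intensity that the authors made with GCOS, whose version is not stated, per the submitters' processing notes. No further normalization was applied, since every array has a 2% trimmed mean of 500; detection calls were not used here. Of 45101 probe sets, 64 are controls and were left out, 34945 have 1 gene symbol in the platform annotation and 932 have several. All 49 symbols matched RefSeq.

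Values were log2(signal + 20), which understates differences of dim genes. Probe sets under a mean signal of 88.2, the 40th percentile, were left out. Groups were compared with limma 3.58.1 (lmFit, eBayes with trend, two-sided) in R 4.3.3, with Benjamini-Hochberg adjustment over 12446 genes, 3 residual degrees of freedom and 8.36 in total. The fit was also run on simulated data with independent noise and far fewer changed genes than were called here. That run does not measure the error rate in these data. The number of arrays limits the precision: the median SE over all genes was 0.16. P-values cover only the spread between vials and between mice.

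The members and lists were chosen with earlier results of these data known. Full values are given for immunosubunits, their counterparts and the activators, and for up to 3 called genes of largest difference in other classes, and up to 4 in the lists around the proteasome. Genes outside that rule are named where a count, a lost call or an order of values concerns them. Promoter motifs were searched as exact strings on both strands in Python 3.11.15, and figures drawn with matplotlib 3.10.9. Alternatives were quantile normalization, pseudocounts of 1 and 50, no filter or the 60th percentile, the mean over probe sets, the choice of probe set by group means, no probe sets that can cross-hybridise, eBayes without trend or robust, a test against 1.2-fold, each array left out in turn, and a block for the replicate number. The second brightest probe set was added after the data were seen.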

Additional observations from a re-analysis of the deposited data

How the results depend on the processing

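A test against a 1.2-fold difference called 3324 of all genes, 1635 of them higher (13.1% of all genes tested) and 1689 lower. Of the 45 proteasome genes it called 9 higher and 2 lower. Quantile normalization gave 6 genes lower (Psmb10, Psme4, Psmb2, Psmb3, Psmd11 and Psme1) and the mean over probe sets gave 1; over all genes, quantile normalization moved the share higher among calls from 50.3% to 53.5%. Leaving out 1 array gave 14 to 23 genes higher, 2 lower each time, and 3663 to 5492 calls over all genes. Class medians moved beyond the spread between vials as follows. Under quantile normalization they were 0.063 for alpha and 0.17 for beta core genes. With the mean over probe sets they were 0.086 (alpha), 0.21 (beta), 0.22 (immunosubunits), 0.29 (non-ATPases), -0.12 (activators) and 0.13 (assembly), and Psmb8 minus Psmb5 was 0.18. Without cross-hybridising probe sets the alpha median was 0.41. With 1 array left out the beta median was 0.19 to 0.30 and the non-ATPase median 0.22 to 0.36. Psmc2 reversed to -0.28 with the mean over probe sets and to -0.053 without cross-hybridising probe sets or with the second brightest, which also reversed Psmd6 (-0.067), Psmg3 (-0.095) and Zfand5 (-0.094). Other genes around the proteasome that reversed were Ubqln1 (0.57 on both probe set alternatives), Rad23b (0.89 on both), Zfand5 without cross-hybridising probe sets (-0.094), Pdia3 (-0.0080 with the mean and -0.38 with the second brightest) and Tpp2 (-0.46 with the second brightest). These settings read other probe sets; beyond that the cause was not tested. Replicate numbers name separate vials and mice. Deviations of same-numbered arrays from their group means had correlations of -0.03 and -0.08. The 2 transgenic arrays deviate as mirror images, so these values cannot decide whether same-numbered arrays share a batch. With the replicate block 4633 genes were called, with 15 proteasome genes higher and 2 lower. Depth is not defined for arrays; signal limits Psma8 and Psmb11, which lay under the filter.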
